A study of Mus musculus with 8 samples.

Results

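Type 2 vomeronasal receptor genes (Vmn2r) were followed through 8 deposited lists of genomic places enriched for adenine methylation of DNA (6mA), which places a methyl group on adenine and is scarce in mammals. Every peak that the authors assigned to a gene whose symbol begins with Vmn2r was taken, and each peak and gene was counted once. This gave 426 peak and gene pairs from 423 peaks, of 90798 peaks in all. The pairs fell on 114 genes, of which 63 had a peak in brain, 104 in cultured cells and 53 in both. The choice rests on names and not on measured values.

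Vmn2r genes encode G protein-coupled receptors of class C, the class of the glutamate and calcium-sensing receptors, with a large extracellular domain that binds the ligand. They are known for their expression in the basal sensory neurons of the vomeronasal organ, where they signal through the G protein subunit Gnao1 and the channel Trpc2 and detect peptide and protein pheromones such as exocrine gland-secreted peptides (Esp) and major urinary proteins (Mup). The genes lie in large tandem arrays with many pseudogenes and near-identical copies. Neither embryonic brain nor embryonic stem cells are tissues in which these receptors are known to work, and the lists measure enrichment of DNA, not expression.

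The brain lists came from embryos examined at embryonic days 9.5 to 10.5. Those with neural tube defects (NTD) came from dams on a low-folate diet that were injected at gestational day 7.5 with 1.5 mg/kg of methotrexate, a folate antagonist, and the normal embryos (CON) carry the treatment label normal saline, with their diet not stated. Each group had 3 immunoprecipitations (NTD1 to NTD3 and CON1 to CON3), all called against a single input of their group. The labels do not say whether the 3 came from separate embryos, so every p below measures only the spread between immunoprecipitations. Mouse embryonic stem cells of the line Sv/129 were cultured in folate-free medium (FA0) or in medium with 4 mg/L of folate (FA4), with 1 list per condition and so no test between them. Effects of methotrexate, of the low-folate diet and of any delay in growth cannot be told apart in these lists.

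The lists differed in length before any gene was considered. They held 5790, 5620 and 7100 peaks in NTD, 2797, 6614 and 3992 in CON, 38699 in FA0 and 20186 in FA4. Peaks were shallow, with a median of 8 or 9 tags in each list, and read totals were not used here. X-linked peaks made up 3.88% ± 0.176 of an NTD list and 1.29% ± 0.130 of a CON list (SD, n = 3, exact permutation p = 0.1). In the cells, chromosome 7, which carries 54 of the Vmn2r genes, held 5.31% of all FA0 peaks and 1.96% of all FA4 peaks.

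The sequence just before a Vmn2r gene shows how alike the family is and where a few peaks lay. Upstream windows of 250 bases were taken from RefSeq (GRCm38.p6, the assembly also called mm10) for 118 starts of Vmn2r genes. Their median A+T content was 61.2%, against 47.6% over all 32851 windows of the table. A TATAAA on either strand was in 21.2% of the Vmn2r windows and 12.4% of all, and GATC, which reads the same on both strands, was in 56.8% and 41.9%. Another motif, AGG with G or C before it and C or T after it, on either strand, went the other way and was in 85.6% and 92.4%. These letters are a description of the windows and say nothing of a bound factor or a methylated base. Of the 118 windows, 63 were at least 90% identical to the window of another Vmn2r gene, and 11 were identical to one.

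The windows were searched only for peaks assigned to Vmn2r genes, not for peaks under other symbols. Such a peak reached into the window of only 5 genes, in 1 list each. The 3 windows with the most covered bases are shown with the covered bases in capitals. The Vmn2r90 window (chr17:17703691-17703940, plus strand) was covered over 220 bases in NTD2, the Vmn2r4 window (chr3:64410058-64410307, minus strand) over 148 bases in FA0, and the Vmn2r101 window (chr17:19576981-19577230, plus strand) over 116 bases in NTD2. The other two, Vmn2r81 in FA0 and Vmn2r114 in NTD3, were covered over 26 bases each.
Vmn2r90: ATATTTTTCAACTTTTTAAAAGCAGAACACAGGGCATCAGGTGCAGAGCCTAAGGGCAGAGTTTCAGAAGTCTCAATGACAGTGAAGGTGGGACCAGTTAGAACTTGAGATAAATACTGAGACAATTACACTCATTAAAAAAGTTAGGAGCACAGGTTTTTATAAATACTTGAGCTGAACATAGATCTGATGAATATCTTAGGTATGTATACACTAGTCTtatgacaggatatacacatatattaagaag
Vmn2r4: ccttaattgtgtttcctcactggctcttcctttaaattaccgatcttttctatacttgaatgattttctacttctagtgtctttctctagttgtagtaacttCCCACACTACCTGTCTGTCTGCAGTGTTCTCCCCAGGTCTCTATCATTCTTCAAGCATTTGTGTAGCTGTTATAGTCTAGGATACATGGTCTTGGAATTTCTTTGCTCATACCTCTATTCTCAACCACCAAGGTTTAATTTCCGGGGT
Vmn2r101: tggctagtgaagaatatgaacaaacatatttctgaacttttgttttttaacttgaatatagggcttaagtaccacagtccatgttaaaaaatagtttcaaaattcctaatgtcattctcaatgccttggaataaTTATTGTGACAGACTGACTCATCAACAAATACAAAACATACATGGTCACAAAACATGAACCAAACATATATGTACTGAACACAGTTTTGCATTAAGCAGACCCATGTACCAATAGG

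The next windows are shown because they are so alike that reads from one copy could be placed on another, and peaks in such genes are uncertain in their gene. Vmn2r114 (chr17:23312314-23312563, minus strand) and its neighbour Vmn2r115 (chr17:23343727-23343976, plus strand), genes at which several brain peaks lay, differ at 2 of the 250 bases, here in capitals. Vmn2r32 (chr7:7479974-7480223, minus strand) and Vmn2r49 (chr7:9992140-9992389, minus strand) have one and the same window and are shown once, with no capitals.
Vmn2r114: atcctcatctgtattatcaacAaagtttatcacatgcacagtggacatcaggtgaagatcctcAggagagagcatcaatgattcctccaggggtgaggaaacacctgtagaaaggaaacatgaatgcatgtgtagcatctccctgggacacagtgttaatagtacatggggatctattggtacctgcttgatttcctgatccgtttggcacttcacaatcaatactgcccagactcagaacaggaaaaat
Vmn2r115: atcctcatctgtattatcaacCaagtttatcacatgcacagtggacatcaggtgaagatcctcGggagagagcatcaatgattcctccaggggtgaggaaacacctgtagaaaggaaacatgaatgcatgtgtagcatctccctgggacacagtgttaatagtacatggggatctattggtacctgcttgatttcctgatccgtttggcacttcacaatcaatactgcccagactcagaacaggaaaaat
Vmn2r32 and Vmn2r49: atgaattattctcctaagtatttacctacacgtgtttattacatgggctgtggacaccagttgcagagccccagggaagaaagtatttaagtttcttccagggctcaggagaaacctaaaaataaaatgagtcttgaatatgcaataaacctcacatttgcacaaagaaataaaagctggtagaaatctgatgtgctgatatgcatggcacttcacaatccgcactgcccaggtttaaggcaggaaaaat

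Over all brain lists 62 of the 128 Vmn2r genes with a transcript had a peak, beside 35.5% of all genes, and NTD and CON lists overlapped. There were 12, 27 and 24 Vmn2r peaks in NTD against 8, 23 and 9 in CON, so that CON2, with 23, lay close to NTD2 and NTD3. As a share of the list this was 0.207%, 0.480% and 0.338% against 0.286%, 0.348% and 0.225%, or 0.342% ± 0.137 against 0.286% ± 0.0611 (SD, n = 3, two-sided exact permutation p = 0.7). With 3 lists against 3 this test cannot go below 0.1.

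Of the 128 Vmn2r genes that have a transcript in the reference table, 11, 24 and 20 had a peak in NTD1 to NTD3. That is 8.59%, 18.8% and 15.6% of them, beside 10.9%, 10.6% and 12.8% of all 38898 genes with a transcript. In CON1 to CON3 the counts were 7, 19 and 7, or 5.47%, 14.8% and 5.47%, beside 5.69%, 12.3% and 8.04% of all genes. The family thus lay below the share of all genes in NTD1, CON1 and CON3 and above it in the other three lists. The share was 14.3% ± 5.20 in NTD and 8.59% ± 5.41 in CON, and the groups overlapped (SD, n = 3, exact permutation p = 0.2). Over all genes the shares were 11.4% ± 1.16 and 8.67% ± 3.34 (p = 0.3 in the same exact permutation test).

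In the stem cells, most of the family had a peak. FA0 held 216 Vmn2r peaks, 0.558% of its list (95% Wilson interval 0.489 to 0.637), and FA4 held 104, or 0.515% (0.425 to 0.624). These peaks marked 90 genes in FA0, 70.3% of the family (61.9 to 77.5) beside 31.8% of all genes, and 65 in FA4, 50.8% (42.2 to 59.3) beside 20.9%. Cut by fold to the length of FA4, the FA0 list marked 52.3% of the family. Both cell lists held a peak at 51 genes, 39.8% of the family beside 15.6% of all genes. FA0 alone held one at 39 genes (30.5%, beside 16.3% of all genes) and FA4 alone at 14 (10.9%, beside 5.31%).

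Vmn2r genes are long, so peaks were also counted per length. The median Vmn2r gene spanned 24.4 kb, against 10.3 kb for all genes with a transcript. Every peak inside the 15 Vmn2r clusters, whatever gene they were assigned to, was counted per megabase, and the density was 1.17 times that of the rest of the genome in FA0 and 1.09 times in FA4. In the brain lists the same ratio was 0.576, 0.962 and 0.869 in NTD and 0.643, 0.855 and 0.547 in CON. The clusters were thus slightly denser than the rest of the genome in both cell lists and sparser in all 6 brain lists.

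**Figure D1:**
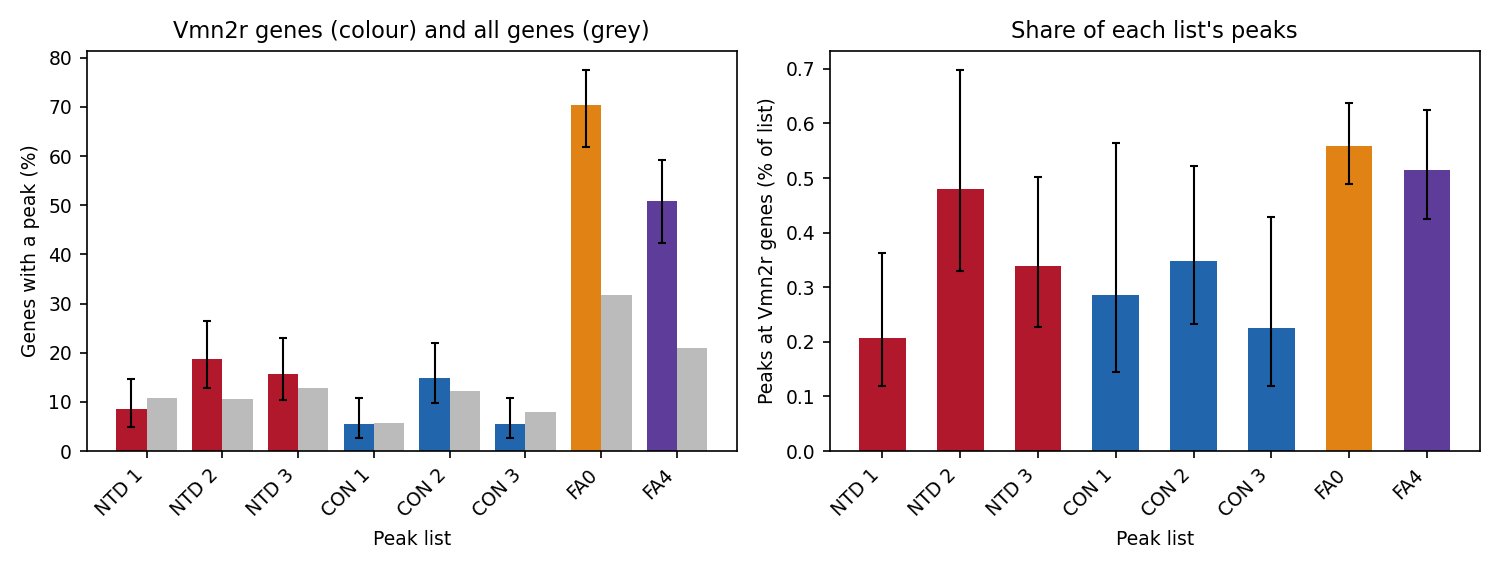
The left panel plots, for each of the 8 peak lists, the percentage of the 128 Vmn2r genes with a peak (coloured bars) beside that of all genes (grey bars), and the right panel the percentage of the list's peaks that lie at Vmn2r genes; error bars are 95% Wilson intervals. Among the brain lists NTD2 alone has an interval that leaves out its grey bar (18.8% beside 10.6%), and NTD and CON overlap; in FA0 and FA4 the family stands at 70.3% and 50.8% beside 31.8% and 20.9% of all genes.

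Most Vmn2r peaks were as small as other peaks of their list. The median Vmn2r peak held 8 tags in every list but CON1, where it held 10. The largest held 12, 10 and 10 tags in NTD and 13, 15 and 12 in CON. No brain Vmn2r peak had a deposited q of at most 0.05, beside 1.12%, 1.16% and 0.831% of all peaks in NTD1 to NTD3 and 2.36%, 1.18% and 1.85% in CON1 to CON3. In FA0, 17 of 218 pairs did (7.80%, beside 2.67% of all FA0 peaks), and in FA4, 5 of 105 (4.76%, beside 4.68%).

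The deposited fold is the tags of a peak over a background, each plus 1, so the background could be read back. It was over 10% above the list's commonest value at 76 of the FA0 pairs (34.9%, beside 20.1% of all FA0 peaks) and at 56 of the FA4 pairs (53.3%, beside 33.3%). In NTD it was raised at 0 of 12, 1 of 27 and 0 of 24 Vmn2r peaks, beside 10.7%, 10.4% and 8.86% of all peaks. In CON it was raised at 2 of 8, 2 of 23 and 3 of 9, beside 15.6%, 9.77% and 12.3%, so that CON2 lay below the share of all its peaks. The median fold of a Vmn2r peak was 2.89, 2.87 and 2.82 in NTD and 2.80, 2.55 and 2.44 in CON. The groups did not overlap, yet the difference of 2.86 ± 0.0378 from 2.60 ± 0.187 (SD, n = 3) had an exact permutation p of 0.1, adjusted p = 0.4 over the 4 medians tested. Over all peaks the median fold was 2.57, 2.55 and 2.50 in NTD and 2.52, 2.55 and 2.71 in CON, and the groups overlapped. The commonest background was 2.11 to 2.19 in NTD and 2.13 to 2.69 in CON.

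**Figure D2:**
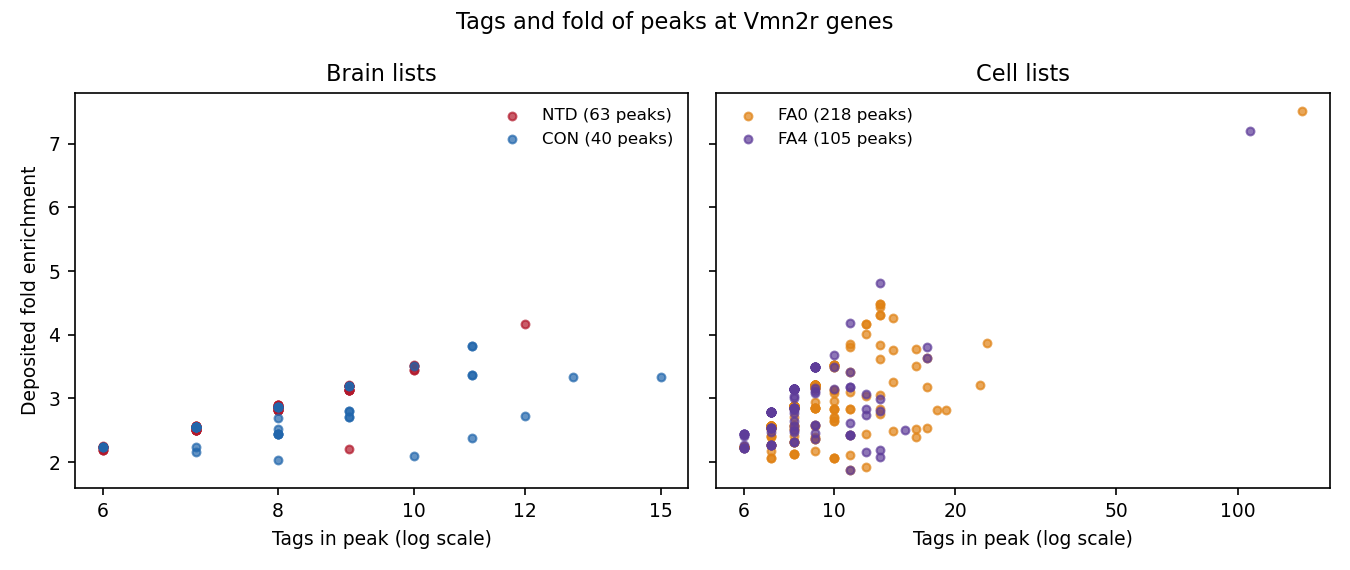
Each point is a Vmn2r peak and gene pair, placed by its tags (log scale) and its deposited fold, with brain lists on the left and cell lists on the right. The commonest background differs between lists (2.11 to 2.69 in brain, 2.12 in FA0 and 1.86 in FA4), so each list has its own upper edge. Points on the edge of their own list share its commonest background, and points under that edge have a higher one. A point under the upper edge of the panel need not have a raised background. The pair with 144 tags in FA0 and 107 in FA4 is the site upstream of Vmn2r87.

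The Vmn2r peak with the most tags, in both cell lists, lay outside the gene arrays at a single site. At chr10:130594777-130595001 FA0 had 144 tags with a fold of 7.51, and at chr10:130594541-130594998 FA4 had 107 tags with a fold of 7.20, overlapping by 222 bases. The background there was 18.3 and 14.01, against the commonest 2.12 and 1.86. The site is intergenic, 97.5 kb upstream of the start of Vmn2r87, the last gene of its chromosome 10 array, and the nearest gene of the reference table is the pseudogene Ftl1-ps2, 1876 bases from the FA0 peak. Small brain peaks assigned to Vmn2r87 lay close by without overlapping it, 1 in NTD2 with 6 tags, 800 bases from the FA4 peak, and 1 in CON2 with 8 tags.

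The genes are not spread evenly over the chromosomes, and peaks chosen by their assigned gene lie near the arrays by that choice. Runs of Vmn2r genes with gaps of at most 2 Mb gave 15 clusters that hold a gene with a transcript. Chromosome 7, with 54 of the 128 genes, carried 32 of the 103 brain pairs and 144 of the 323 cell pairs. Chromosome 17, with 33 of the genes, carried 31 and 68. Chromosomes 3, 5, 6 and 10 shared most of the remainder.

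**Figure D3:**
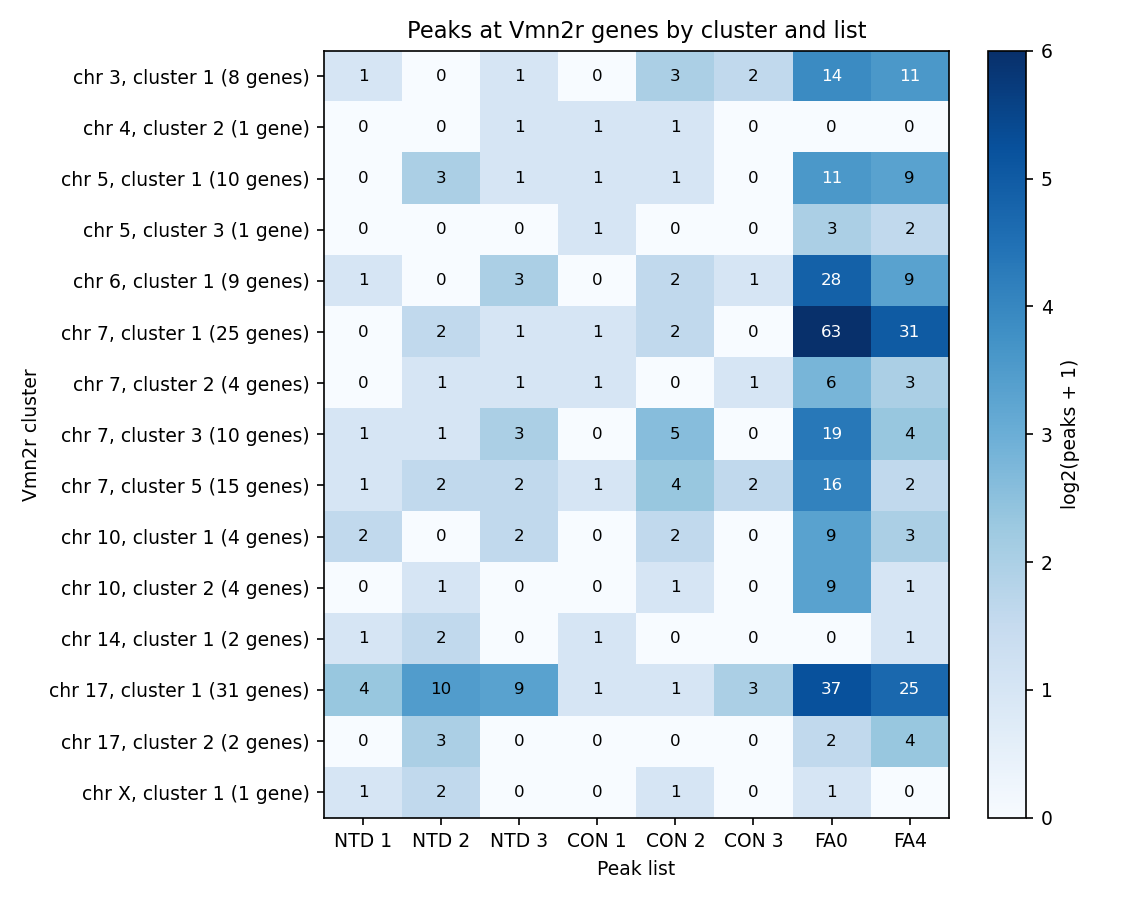
Each cell gives the number of Vmn2r peaks in a cluster (rows, with the number of genes that have a transcript) and a list (columns), coloured by log2 of the count plus 1. Chromosome 17, cluster 1 holds 4, 10 and 9 peaks in NTD against 1, 1 and 3 in CON, and chromosome 7, cluster 1 holds 63 in FA0 and 31 in FA4.

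The widest difference between NTD and CON lay in the main chromosome 17 cluster (chr17:17703941-23479597), which holds 31 genes from Vmn2r90 to Vmn2r117. It had 4, 10 and 9 Vmn2r peaks in NTD against 1, 1 and 3 in CON, 7.67 ± 3.21 against 1.67 ± 1.15 (SD, n = 3), with no overlap and an exact permutation p of 0.1, the smallest possible. The CON lists were shorter on average, and as a share of all peaks of the list the counts were 0.0691%, 0.178% and 0.127% in NTD and 0.0358%, 0.0151% and 0.0752% in CON, which overlap (exact permutation p = 0.2). As a share of a list's Vmn2r peaks they were 33.3%, 37.0% and 37.5% in NTD and 12.5%, 4.35% and 33.3% in CON, where CON3 met the lowest NTD list (exact permutation p = 0.2, adjusted p = 1 over 15 clusters). All peaks inside the cluster, whatever their gene, numbered 8, 16 and 17 in NTD and 3, 7 and 5 in CON, 0.221% ± 0.0750 and 0.113% ± 0.0108 of the lists (SD, n = 3, exact permutation p = 0.1). The whole chromosome did not move that way, with 3.52% ± 0.0980 of NTD peaks and 4.11% ± 0.429 of CON peaks (SD, n = 3, exact permutation p = 0.2). Among peaks within 10 kb of a start the difference in share turned the other way, to -5.00 percentage points (p = 1 in the same exact permutation test).

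**Figure D4:**
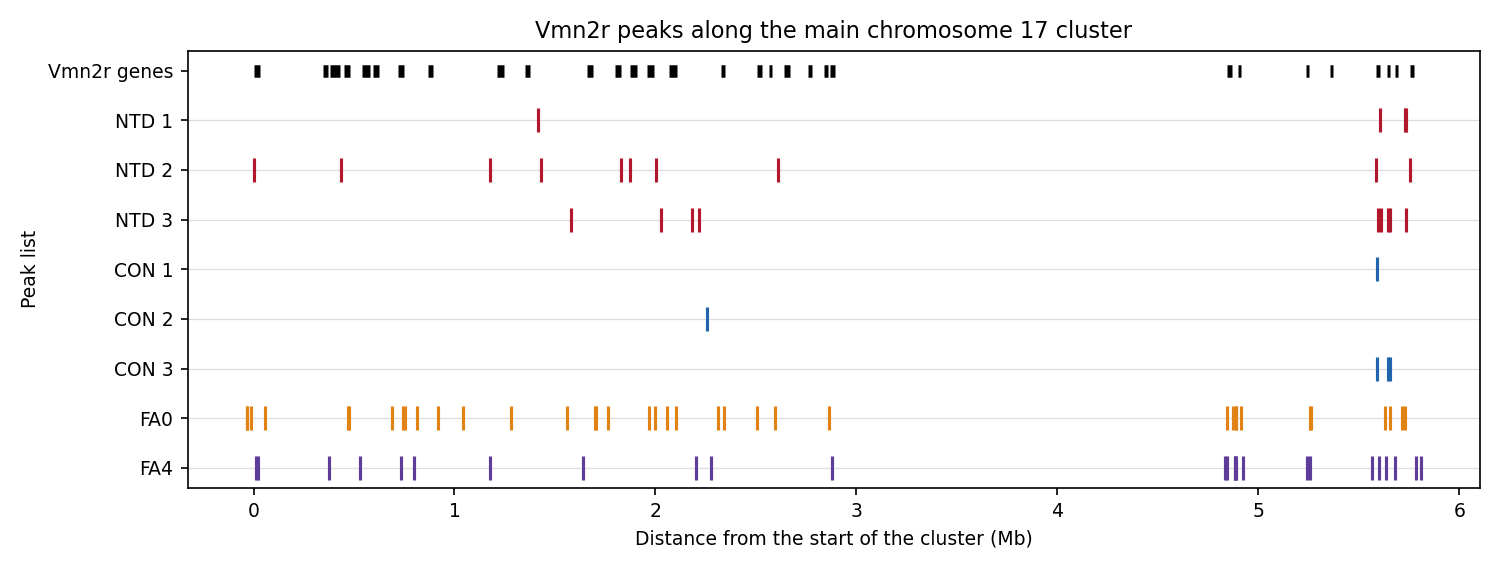
Vmn2r peaks of each list along the main chromosome 17 cluster, by distance from its start in Mb, with the Vmn2r genes that have a transcript as black boxes in the top row. The NTD lists hold 4, 10 and 9 peaks along it; of the 5 CON peaks, 4 lie at the far end near Vmn2r114 and Vmn2r115.

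Few genes were peaked in many brain lists. Over the 6 brain lists 66 of the genes in the deposited lists or the table had no peak, 45 had one in 1 list, 11 in 2 and 7 in 3 or more. Of the 128 genes with a transcript, 6 reached at least 3 lists, or 4.69%, beside 6.25% of all genes. Vmn2r114, near the far end of the main chromosome 17 cluster, led with a peak in 5 lists, 1, 1 and 2 in NTD and 1, 0 and 1 in CON. Vmn2r27, on chromosome 6, had 1 peak in each of NTD1, NTD3, CON2 and CON3. Vmn2r83 had 1 in NTD1, NTD3 and CON2, Vmn2r88, a receptor described for hemoglobin, had 1 and 2 in NTD1 and NTD2 and 1 in CON1, and Vmn2r-ps159 had 1 in NTD3, CON1 and CON2.

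Vmn2r117 alone in the family was peaked in every NTD list and in none of CON, beside 0.355% of all genes, and no Vmn2r gene showed the reverse, beside 0.0771%. It had 2, 1 and 1 peaks. The NTD1 peak at chr17:23440086-23440333 held 12 tags with a fold of 4.17, the highest fold of any brain Vmn2r peak, and overlapped the NTD3 peak at chr17:23440059-23440328 with 9 tags by 243 bases. Both are intergenic, 39.4 kb downstream of the Vmn2r117 start and 681 and 686 bases from the pseudogene Vmn2r-ps134. The NTD2 peak was elsewhere, in an intron at chr17:23460823-23461105, with 9 tags. The gene thus met the description through different places, and without intergenic peaks it no longer did.

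Vmn2r121, alone on the X chromosome, had 1, 2 and 0 peaks in NTD against 0, 1 and 0 in CON. NTD1 and NTD2 shared 162 bases of an intergenic site at chrX:124125985-124126436 and chrX:124125939-124126146, with 9 tags each. NTD2 also had an exon peak of 10 tags at chrX:124128532-124128774. That peak and one near Vmn2r102 (chr17:19704165-19704588) were level as the leading Vmn2r peaks of NTD2, each with a fold of 3.51. The share of all peaks on X was higher in NTD, as given above, and its part in these counts was not tested.

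Among the brain Vmn2r peaks 12 of 103 (11.7%) overlapped a peak of another brain list, beside 4.13% of all brain peaks, with no test, and such pairs lay within and between the groups. At Vmn2r114 an intron site was shared by CON1 and CON3 with 11 and 10 tags, both on a raised background. At Vmn2r115, the receptor described for ESP22, NTD3 and CON3 shared an intron site with 9 and 12 tags, the CON3 peak on a raised background, and met by 16 bases in an exon. NTD1 and NTD3 shared the Vmn2r117 site and 40 bases near Vmn2r27, and NTD1 and NTD2 the Vmn2r121 site. With an overlap of at least 50% of the shorter peak, 6 of the 12 remained shared.

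Receptors with a known ligand or role were marked unevenly in brain. Vmn2r116, the receptor for the male tear peptide ESP1, had no brain peak, 1 FA0 peak and 1 FA4 peak, the latter a promoter peak of 9 tags at chr17:23385118-23385465. Vmn2r115 had 2 peaks in NTD3, 2 in CON3, 2 in FA0 and 1 in FA4. Vmn2r26, a receptor for peptides that bind major histocompatibility molecules, had 1 in NTD3, 6 in FA0 and 2 in FA4. Vmn2r1 to Vmn2r7 form a subfamily that is co-expressed with the other receptors in basal neurons. Of its 7 genes, 4 had a brain peak, 4 an FA0 peak and 5 an FA4 peak, beside 58, 86 and 60 of the other 121 Vmn2r genes. They held 5 peaks in FA0 and 9 in FA4, while the others held 213 and 96. Vmn2r6 had 3 FA4 peaks and none in FA0, Vmn2r1 had 2 and none, and Vmn2r2 had 2 and 1. Vmn2r3 had 2 in FA0, 1 in FA4 and 1 in each of CON2 and CON3, Vmn2r4 had 1 in FA0 and 1 in NTD3, Vmn2r5 had 1 in NTD1 alone, and Vmn2r7 had 1 in each cell list.

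Promoter peaks were about as frequent at Vmn2r genes as among all peaks, with no test. Exon peaks were more frequent in the pooled brain pairs and in both cell lists, also with no test. In the brain 7 of 103 pairs were classed promoter by the authors (6.80%), 14 upstream, 8 exon, 21 intron and 53 intergenic (51.5%). Promoter shares over all pairs were 6.88% to 7.79% in a brain list, 3.42% in FA0 and 3.26% in FA4. The exon share of 7.77% compares with 1.29% to 1.62% of all pairs in a brain list, and it rests on 8 peaks. In the cells 13 of 323 were promoter (4.02%), 73 upstream, 7 exon (2.17%), 73 intron and 157 intergenic (48.6%). No class passed the test between NTD and CON. Promoter peaks made up 7.87% ± 3.495 and 2.90% ± 5.02 (SD, n = 3) and intergenic ones 56.3% ± 9.45 and 42.5% ± 12.4 (SD, n = 3), each with an exact permutation p of 0.3 and an adjusted p of 0.75 over 5 classes, and the other classes had p of 0.6 or more in the same exact permutation test.

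The brain promoter peaks were all small. Vmn2r88 had one in NTD1 with 10 tags, 815 bases downstream of the start, and another in NTD2 with 8 tags, 862 bases upstream. The Vmn2r90 peak in NTD2, whose covered bases are printed above, held 9 tags, the Vmn2r101 peak in NTD2 held 7, and the Vmn2r114 peak in NTD3 held 7. In CON2 Vmn2r3 and Vmn2r76 had promoter peaks of 7 and 8 tags. Exon peaks lay at Vmn2r114 in NTD1 and NTD2 at separate places, at Vmn2r115 in NTD3 and CON3, at Vmn2r121 in NTD2, at Vmn2r83 in NTD3, at Vmn2r81 in CON2 and at Vmn2r-ps159 in CON2. The last held 15 tags, the most of any brain Vmn2r peak, on a raised background of 3.802.

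The distance from the start varied among the brain lists. The median absolute distance was 40.9, 19.8 and 37.4 kb in NTD and 17.6, 26.8 and 17.7 kb in CON, and the groups overlapped (32.7 ± 11.3 against 20.7 ± 5.29 kb, SD, n = 3, exact permutation p = 0.2, adjusted p = 0.4). Over all peaks it was 27.4, 25.6 and 27.7 kb in NTD and 24.5, 26.0 and 23.0 kb in CON, so Vmn2r peaks lay nearer than all peaks in NTD2, CON1 and CON3 and farther in the other lists. In FA0 it was 25.7 kb, against 47.7 kb for all peaks, and in FA4 21.2 kb against 59.3 kb. By the reference table, 33.1% of the cell pairs and 33.0% of the brain pairs overlapped a Vmn2r gene or pseudogene.

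By share of a list's Vmn2r peaks, a chromosome 7 cluster separated the brain groups, with lower shares in NTD. The main chromosome 17 cluster did not separate them on this measure. Shares of the clusters within a list depend on each other. This cluster, with Vmn2r65 to Vmn2r79 on chromosome 7 (chr7:84810427-87037968), held 1, 2 and 2 peaks in NTD against 1, 4 and 2 in CON, counts that overlap. The shares were 8.33%, 7.41% and 8.33% of the Vmn2r peaks against 12.5%, 17.4% and 22.2%, with no overlap, an exact permutation p of 0.1 and an adjusted p of 1. Each share rests on 4 peaks or fewer.

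In the cells the largest cluster by peaks was that of Vmn2r28 to Vmn2r52 on chromosome 7 (chr7:5480456-10176286), where 23 of 25 genes had a cell peak, beside 104 of the 128 Vmn2r genes and 37.1% of all genes. It held 63 of the 218 FA0 pairs (28.9%, 95% Wilson interval 23.3 to 35.2). In FA4 it held 31 of the 105 pairs (29.5%, 21.6 to 38.8), and in brain 6 of the 103 pairs. All peaks inside it, whatever their gene, numbered 99 in FA0 and 39 in FA4, 9, 11 and 9 in NTD and 4, 5 and 1 in CON. The brain lists hold 31913 peaks in all and the cell lists 58885. Of the pairs with a q of at most 0.05 this cluster held 13 of 17 in FA0 and 2 of 5 in FA4. The background was raised at 63.8% of its cell peaks, and 20 of its 24 upstream windows had a copy of at least 90% identity, against 13 of 30 windows in the main chromosome 17 cluster, where 40.3% of cell peaks had a raised background. The part of raised background and of shared sequence in these counts was not tested.

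This array did not follow its chromosome. Chromosome 7 had 5.20 times as many peaks in FA0 as in FA4, and 5.49 times (1955 against 356) outside the cluster. All peaks inside the cluster, whatever their gene, had a ratio of 2.54 (99 and 39). Its Vmn2r peaks had a ratio of 2.03, close to the 1.92 of the whole lists and the 2.08 of all Vmn2r peaks. On the same chromosome the small cluster of Vmn2r53 to Vmn2r56 had 6 and 3 peaks, a ratio of 2, also below that of the chromosome. The cluster of Vmn2r65 to Vmn2r79 had 16 and 2 peaks, a ratio of 8, and the third cluster 19 and 4, a ratio of 4.75. On chromosome 3, with Vmn2r1 to Vmn2r7, the ratio was 1.27 (14 and 11) against 1.49 for the chromosome, and on chromosome 17 it was 1.48 (37 and 25) against 1.71. With 1 list per condition these are values side by side and carry no test.

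**Figure D5:**
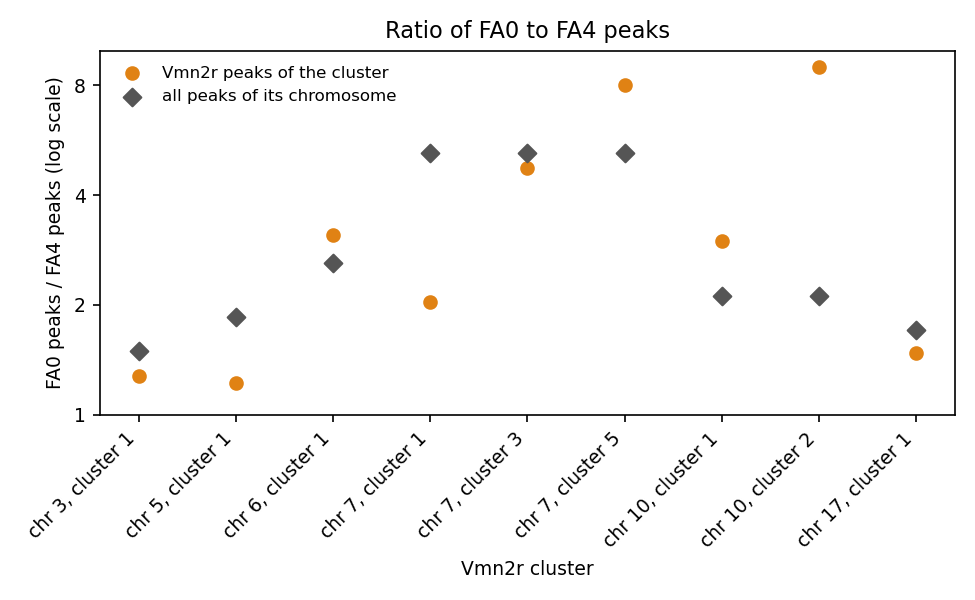
Ratio of FA0 to FA4 peaks (log scale) for the Vmn2r peaks of each cluster with at least 10 cell peaks (circles) and for all peaks of its chromosome (diamonds). Chromosome 7, cluster 1 stands at 2.03 beside 5.20 for its chromosome, the widest gap below a diamond.

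The genes with the most cell peaks came from several arrays. Vmn2r-ps11, a transcribed pseudogene of 212 kb on chromosome 3, had 9 in FA0 and 2 in FA4, Vmn2r45 had 7 and 3, Vmn2r27 had 8 and 1, and Vmn2r26 had 6 and 2. Vmn2r24 had 5 and 2, Vmn2r44 had 6 and 1, Vmn2r49 had 4 and 3, and Vmn2r87 had 6 and 1, while Vmn2r111 and Vmn2r32 had 6 peaks each over both lists. Genes with a cell peak had a median length of 25.3 kb, and the 24 without one 18.6 kb. A promoter peak in both cell lists was found at Vmn2r49 only, at different places, with 23 tags at chr7:9993652-9993995 in FA0 and 13 tags at chr7:9991260-9991527 in FA4, on backgrounds of 6.47 and 5.75. Its FA0 peak at chr7:10008379-10008857 held 24 tags with a fold of 3.88, the most tags in the family after the Vmn2r87 site.

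The remaining pairs with a q of at most 0.05 held 11 to 17 tags. In FA0 they were at Vmn2r-ps11, Vmn2r10, Vmn2r29, Vmn2r32 (2 peaks), Vmn2r43, Vmn2r44 (2 peaks), Vmn2r45 (2 peaks), Vmn2r38, Vmn2r37, Vmn2r50 and Vmn2r70, and in FA4 at Vmn2r113, Vmn2r-ps11 and Vmn2r49 (2 peaks). The Vmn2r-ps11 peak in FA4 had a fold of 4.81 over a background of 1.91, near the commonest value. The Vmn2r43 peak lay 9473 bases upstream of its start, and Vmn2r32 had one in an intron, while most of the others were intergenic.

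FA0 and FA4 rarely marked the same place. Of the 216 FA0 peaks 6 overlapped an FA4 peak (2.78%, Wilson 95% interval 1.28 to 5.93, beside 1.80% of all FA0 peaks), and of the 104 FA4 peaks 6 overlapped an FA0 peak (5.77%, 2.67 to 12.02, beside 3.44% of all FA4 peaks). They lay at Vmn2r87, Vmn2r113, Vmn2r31, Vmn2r40, Vmn2r49 and Vmn2r50. At Vmn2r113 the peaks held 10 and 11 tags on the common background, and at the other five at least 1 of the pair had a raised background. Between brain and cells 2 places overlapped, upstream of Vmn2r66 (NTD2 and FA0, 8 and 7 tags) and beyond Vmn2r117 (FA4 and an NTD2 peak assigned to Gm41543).

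The genes that Vmn2r receptors work with were described beside them, with no test. Of 16 genes of vomeronasal signal transduction, 8.33% ± 9.55 had a peak in an NTD list and 4.17% ± 3.61 in a CON list (SD, n = 3), and 62.5% in FA0 and 43.8% in FA4. Gnao1 had no brain peak and 9 in each cell list, and Trpc2 had 1 peak, in FA0. Kirrel3, a cell adhesion protein that sorts vomeronasal axons, had 0, 2 and 6 peaks in NTD against 0, 0 and 1 in CON. It also had 15 in FA0 and 8 in FA4, and these counts allow for neither list length nor gene length. Of 15 Esp genes 17.8% ± 13.9 and 8.89% ± 3.85 were peaked in NTD and CON (SD, n = 3), and Esp1, which encodes the ligand of Vmn2r116, had 1 peak in NTD3 and 1 in FA4. Of 22 Mup genes 16.7% ± 5.25 and 13.6% ± 7.87 were peaked (SD, n = 3).

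Other receptor genes differed widely in the cells. Of 232 Vmn1r genes, the type 1 vomeronasal receptors of the apical neurons, 45.7% had a peak in FA0 and 21.6% in FA4, and of 1128 olfactory receptor (Olfr) genes 31.4% and 18.8%. Their median lengths were 0.924 and 0.951 kb, against 24.4 kb for Vmn2r, so the shares are not on one scale. In brain the Vmn1r shares were 10.3% ± 0.431 in NTD and 8.33% ± 2.13 in CON (SD, n = 3). Among trace amine receptors (Taar, 15 genes), formyl peptide receptors (Fpr, 7) and bitter taste receptors (Tas2r, 35), the FA0 shares were 20%, 28.6% and 31.4% and the FA4 shares 20%, 28.6% and 40%. Of 15 other class C receptors 86.7% had a peak in FA0 and 33.3% in FA4. Grm7 and Grm8 held 28 and 24 of their 86 FA0 pairs, and the length of these receptor genes was not compared. For 10 escort genes of the H2-M family and B2m, proteins that accompany Vmn2r receptors in some basal neurons, the shares were 60% and 30%.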

How the data were processed

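DNA from mouse embryo brain and from Sv/129 stem cells was fragmented, and a 6mA kit was used to pull down the part not kept as input (protocols in the labels). Of the 8 sample records 4 are inputs, and the 3 immunoprecipitations of a brain group share 1 record. The submitters' processing notes name cutadapt 1.9.2, Bowtie2 2.2.4 and mm10. The program that called peaks was not given in the sources used here. Lists headed Case and Control were taken as NTD and CON, with input 1 of the group as the control of each, per the file headers.

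The tag count of a peak is deposited as a whole number, not normalized judging by its values, and may be the height at its summit. The authors give each p-value and q-value as −log10. Fold is deposited as a ratio, and its values behave as tags plus 1 over background plus 1. Peak positions, classes, distances and gene assignments were taken from the authors. Fold and q served only to describe or filter peaks within a list.

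Repeated rows of a peak and Vmn2r symbol were merged. Symbols were matched to a RefSeq table of GRCm38.p6 by symbol, accession or unique synonym, which placed 113 of 114. Vmn2r-ps159 was not matched, although the table has Vmn2r129 at its place, and it enters no share of the 128 genes. Gm9268, listed there as Vmn2r126, is not a member by its symbol. The table holds 272 Vmn2r genes, 144 of them pseudogenes without a transcript, and 15 of the 128 with one had no peak under their own symbol. Vmn2r126 and Vmn2r129 are among the 15, since peaks listed under Gm9268 and Vmn2r-ps159 were not counted for them. No genome was used, so peaks themselves are not printed. Identity of upstream windows came from edlib 1.3.9.post1. The transcript sets behind the brain and the cell annotations differ.

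Group values were compared with a two-sided exact permutation test over 20 assignments, with Benjamini-Hochberg adjustment within each family, and intervals of shares are Wilson 95% intervals for counting error alone. Python 3.11.15, numpy 2.4.6, pandas 2.3.3, scipy 1.17.1 and matplotlib 3.10.9 were used, and the procedures were tested on simulated data. The members, gene lists, tests and settings were chosen with earlier results of these data known. Named were genes peaked in at least 3 brain lists or in all lists of 1 brain group alone, the 10 genes with most cell peaks (ties by symbol; Vmn2r111 and Vmn2r32 complete the 10), peaks with a q of at most 0.05, promoter and exon peaks in brain or in both cell lists, overlapping peaks, the leading peaks of each list, and Vmn2r115, Vmn2r116 and Vmn2r1 to Vmn2r7.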

Additional observations from a re-analysis of the deposited data

How the results depend on the processing

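No call was gained or lost between NTD and CON under any alternative that was run, since no test can pass 0.05 with 3 lists against 3. Of all alternative values, 176 kept their direction or stayed near their value, 17 turned and 21 moved. The difference in share of peaks at Vmn2r genes (0.0555 percentage points, NTD minus CON) was -0.00574 without intergenic peaks, and -0.0138 to 0.123 on leaving out a list, turning without NTD2. The difference in share of genes was 3.52 to 8.85 percentage points on leaving out a list. The genes peaked in every NTD list and in none of CON (1) numbered 0 with a fold of at least 3, without intergenic peaks, within 10 kb of the start and at equal list length, and 1 to 3 on leaving out a list, with the reverse 0 to 1. Leaving out a list gave -16.1 to 8.92 points for upstream, -1.88 to 3.68 for exon and 8.71 to 20.9 for intergenic peaks, -1 to 0 for median tags, and -2.69 to 8.18 for the third chromosome 7 cluster, with 13.0 to 27.5 for the main chromosome 17 cluster.

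At equal list length upstream became 1.33 and intergenic -2.24 points (0 by construction without intergenic peaks), median width 3.67 bases and median distance -2.47 kb. Without intergenic peaks width became 5.17 bases and distance -3.05 kb. Within 10 kb of the start width became 2.33 bases and the main chromosome 17 cluster -5.00 points. The cause of these turns was not tested.

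In the cells a q of at most 0.05 left 1.65% of FA0 peaks at Vmn2r genes and 10.2% and 3.13% of the genes in FA0 and FA4. It left 5 FA4 Vmn2r peaks, of which 20% overlapped an FA0 peak. A fold of at least 3 left 35.2% and 27.3% of the genes, peaks not intergenic 50.8% and 35.2%, and peaks within 10 kb 26.6% and 20.3%, with 0.724% and 0.986% of the list's peaks. FA0 at the length of FA4 left 52.3%. A q of at most 0.05 left no brain Vmn2r peak and a fold of at least 3 none in CON3, so neither gave a test of the groups.

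Same-numbered lists were not paired: their deviations over 114 genes correlated at -0.0935, -0.0506 and 0.196. With the replicate block, p was 0.25 to 1, where 3 pairs cannot go below 0.25. Read totals are not known, so depth limits every count here.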
